A study of Mus musculus with 64 samples.

Results

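The Dlk1-Dio3 imprinted locus on mouse chromosome 12 was described here through 6 genes: the protein-coding genes Dlk1 and Rtl1 and the noncoding RNA genes Meg3, Rian, Gm26945 and Mirg. They were the 6 genes named for this locus among 46785 genes in each of the 64 isoform tables, and they held 54 of the 112714 transcript rows. Dio3, which also names the locus, was not among the 6. It was listed, with Dio3os, among the neighbouring genes read below. The locus was chosen by measured values: Gm26945 and 1 transcript of Rian, ENSMUST00000194138, belong to the drug-responsive transcripts of these same libraries. The drug values of Gm26945 and Rian are therefore given as a description with no test, and the tests below concern the other 4 genes under drug, the saline libraries, and the comparison of the tissues.

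Total RNA from the nucleus accumbens (NAc) and prefrontal cortex (PFCx) of adult male C57BL/6N mice was sequenced 2 h after a single i.p. injection. Mianserin and ketamine were given at 20 mg/kg, venlafaxine at 16 mg/kg, methamphetamine at 2 mg/kg, haloperidol at 1 mg/kg and risperidone at 0.5 mg/kg, with 4 libraries for each drug and tissue. All mice were wild type, all drugs were given in saline, and a drop of HCl was added for haloperidol and risperidone. The controls were 8 saline libraries in each tissue, in 2 sets of 4 that the labels number I and II. Only 1 dose and 1 time point were measured, and the dissected tissue holds many cell types, so fewer cells of a type and less RNA per cell cannot be told apart. The labels number the libraries without naming the animals, so the p-values measure the spread between these libraries.

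Levels are in FPKM, the deposited unit, which scales the reads of a transcript by its length and by the mapped reads of the library. The NAc libraries fell into 2 sample sets by the number of transcripts above 0. Set I (saline set I, haloperidol, risperidone and methamphetamine) had 85287 to 87827 such transcripts, and set II (saline set II, mianserin, venlafaxine and ketamine) had 107099 to 110556. The labels name a set for saline only, so the sets of the drugs rest on these numbers. In the PFCx the sets overlapped, at 108556 to 110852, and each drug was given there the set it had in the NAc. Aligned sequence, estimated from coverage over FPKM, ran from 1.52 to 3.26 gigabases a library. All 8 NAc markers (such as Drd1 and Penk) were higher in the NAc after saline and all 8 PFCx markers (such as Slc17a7 and Tbr1) were lower, which is the order the tissue labels give. The summed level of the NAc markers was 22.2 to 78.8 FPKM in the PFCx saline libraries and 533.3 to 725.0 FPKM in the NAc saline libraries.

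In an imprinted locus, a gene is expressed from the chromosome of 1 parent and silenced on that of the other. At this locus the paternal chromosome expresses Dlk1, whose product is a transmembrane protein of the Delta-Notch family, and Rtl1, a retrotransposon-derived gene known for its role in the placenta. The maternal chromosome expresses a chain of noncoding RNAs, namely Meg3, Rian, Mirg and the antisense partner of Rtl1, which host clusters of C/D box snoRNAs and microRNAs. These noncoding RNAs are abundant in brain neurons and largely nuclear. The reads carry no parental information, so allelic expression was not measured.

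Positions are in GRCm38 (mm10). Dlk1 lies at chr12:109452823-109463336 on the plus strand and has 10 transcripts in the tables. Meg3, a lincRNA, lies at chr12:109541001-109571726 and has 11. Rtl1 lies on the minus strand at chr12:109589194-109600330 with 1 transcript. Rian lies at chr12:109603940-109661716 with 19 transcripts, and Mirg at chr12:109729764-109749460 with 12. Of the 54 transcripts, 46 reached a mean of 0.1 FPKM in at least 1 tissue and entered the tests.

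Gm26945 lies inside Rian. It is annotated as a lincRNA with a single exon of 2011 bases at chr12:109640341-109642351, on the same strand as Rian. In the GENCODE vM21 annotation, 5 Rian transcripts span it and 0 Rian exons overlap it, so it is intronic to Rian. Unspliced Rian RNA would map to the same bases. The annotated snoRNA gene Gm24899, of 73 bases, lies within the Gm26945 exon at chr12:109641022-109641094. Its sequence is shown with 40 bases of Gm26945 on each side (chr12:109640982-109641134, plus strand), because it is the annotated feature that Gm26945 shares with the snoRNA arrays of Rian, and capitals mark the snoRNA.
Gm26945 around Gm24899: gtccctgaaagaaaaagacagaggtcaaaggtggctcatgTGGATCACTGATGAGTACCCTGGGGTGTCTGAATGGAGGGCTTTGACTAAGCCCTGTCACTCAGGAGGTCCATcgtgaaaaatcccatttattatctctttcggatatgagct
The letters TGATGA, which are those of box C in C/D box snoRNAs, begin at base 9 of the snoRNA. The last CTGA, the letters of box D, begins at base 29 of the 73. It is not near the 3' end of the snoRNA, so only a match of letters is shown, not a box D. Another CTGA overlaps TGATGA and was not counted. Both motifs in this order on the plus strand were found in 72.0% of the 343 annotated mouse snoRNA transcripts of 60 to 90 bases.

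The Rian transcript ENSMUST00000194138 starts 1590 bases downstream of the end of Gm26945. It is a single block of 1501 bases at chr12:109643942-109645442. Its first 1320 bases, 87.9% of its length, precede an annotated Rian exon that begins at chr12:109645262 and is used by 4 other Rian transcripts, so most of this transcript is sequence that those transcripts splice out. The boundary is shown at chr12:109645182-109645301 on the plus strand, with the bases of the exon in capitals.
Rian ENSMUST00000194138: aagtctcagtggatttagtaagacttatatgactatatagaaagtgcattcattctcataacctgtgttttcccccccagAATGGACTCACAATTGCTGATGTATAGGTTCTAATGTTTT
The bases before the exon end in ag, the last letters of a canonical intron.

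Rtl1 and Mirg share their span with microRNA genes. RefSeq (GRCm38) places 13 mature microRNAs of 7 hairpins within the Rtl1 span, and 11 of them, from 6 hairpins, are on the strand opposite to Rtl1. The counting of strand is not given in the sources used here, so reads of Rtl1 and of its antisense partner cannot be told apart in these values. Some of the mature microRNAs opposite to Rtl1 are shown, with the seed (bases 2 to 8) in capitals.
mmu-miR-431-5p: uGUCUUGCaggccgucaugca
mmu-miR-433-3p: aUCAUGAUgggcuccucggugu
mmu-miR-127-3p: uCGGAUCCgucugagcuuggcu
mmu-miR-434-3p: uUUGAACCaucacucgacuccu
mmu-miR-136-5p: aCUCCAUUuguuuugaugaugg
The Mirg span holds 26 mature microRNAs of 14 hairpins, all on the strand of Mirg, with 25 different seeds. The pair with the same seed, GGUUGCC, comes first below, followed by members of the cluster that are well known in neurons.
mmu-miR-453: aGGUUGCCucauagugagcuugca
mmu-miR-496a-5p: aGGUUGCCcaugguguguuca
mmu-miR-134-5p: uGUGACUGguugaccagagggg
mmu-miR-382-5p: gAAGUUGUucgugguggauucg
mmu-miR-410-3p: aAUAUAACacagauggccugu
Mature microRNAs are shorter than the fragments sequenced here, and none of their levels was measured. The Mirg and Rtl1 values below are those of the longer transcripts.

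The 6 genes differed widely in level. Per kilobase, Meg3 was the highest in the NAc saline libraries, at 352.3 ± 21.6 FPKM (SD, n = 8), followed by Rian at 208.6 ± 4.197 FPKM. Mirg was next at 18.95 ± 1.13 FPKM. Gm26945 (7.91 ± 0.731 FPKM), Rtl1 (6.36 ± 0.585 FPKM) and Dlk1 (5.80 ± 1.61 FPKM) followed, and the ranges of neighbours overlapped from Gm26945 to Rtl1 and from Rtl1 to Dlk1. In the PFCx the order was the same with wider gaps at the end, from Meg3 at 303.6 ± 20.9 FPKM and Rian at 182.6 ± 5.30 FPKM to Rtl1 at 3.87 ± 0.603 FPKM and Dlk1 at 0.680 ± 0.349 FPKM. Rian varied least between saline libraries, with a coefficient of variation of 2.01% (NAc) and 2.90% (PFCx), and Dlk1 varied most, with 27.8% and 51.4%.

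**Figure D1:**
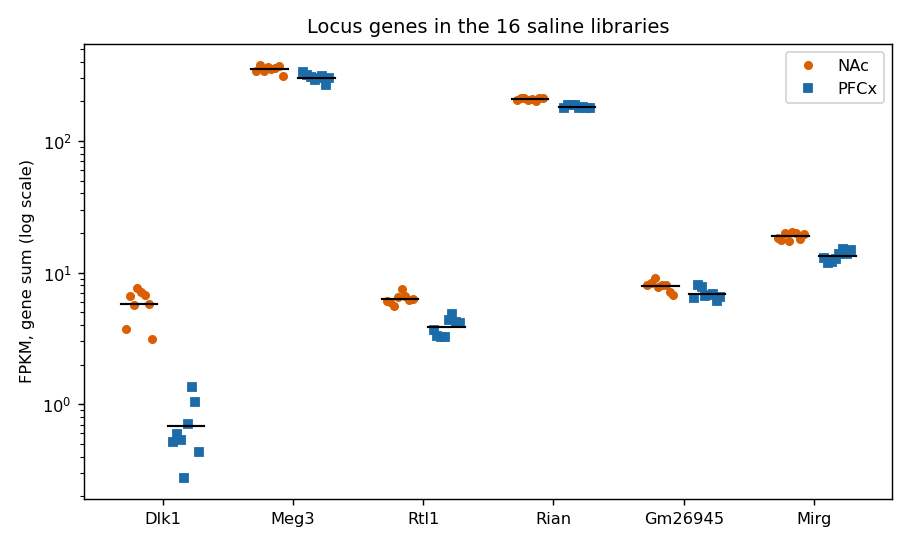
FPKM of the 6 genes in the 16 saline libraries on a log axis, with 8 NAc libraries as circles, 8 PFCx libraries as squares and the mean as a bar. The Dlk1 points of the tissues do not overlap, with NAc values from 3.11 to 7.64 and PFCx values from 0.274 to 1.35, while those of Meg3 lie close together.

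The tissues were compared after saline, which asks where the locus is more active without drug. Each of the 6 genes was higher in the NAc than in the PFCx, and all 6 passed the test (limma on log2(FPKM + 1), Benjamini-Hochberg over 37034 genes, adjusted p under 0.05). Of all genes tested, 33.9% were called in this comparison, and the median difference over all genes was -0.105 on the log2(FPKM + 1) scale, in the direction of the PFCx.

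Dlk1 showed the widest difference among the 6. Its NAc saline libraries ran from 3.11 to 7.64 FPKM with a median of 6.20, and the PFCx libraries from 0.274 to 1.35 FPKM with a median of 0.563. The libraries of the tissues did not overlap, and the difference was 2.00 ± 0.158 (SE) on the log2(FPKM + 1) scale (limma, adjusted p = 3.67e-08). This scale understates the change of a gene near 1 FPKM. Dlk1 comes first in position among the 6 genes and is one of those that the paternal chromosome expresses.

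Rtl1 ran from 5.54 to 7.52 FPKM in the NAc with a median of 6.27, and from 3.25 to 4.88 FPKM in the PFCx with a median of 3.89. Its libraries did not overlap either, and its difference was 0.60 ± 0.073 (limma, adjusted p = 7.74e-06). Mirg ran from 17.4 to 20.3 FPKM in the NAc and from 11.8 to 15.1 FPKM in the PFCx, again without overlap, with a difference of 0.47 ± 0.055 (limma, adjusted p = 4.29e-06). Of the spans of the 6 genes, those of Mirg and Rtl1 hold the most microRNA hairpins, 14 and 7.

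For the most abundant genes the differences were smaller. Rian was higher in the NAc by 0.19 ± 0.032 (limma, adjusted p = 0.000198), from 201.2 to 212.9 FPKM against 177.6 to 189.3 FPKM, with no overlap. Meg3, at 314.0 to 380.7 FPKM against 264.4 to 336.8 FPKM, overlapped between tissues, and its difference was 0.21 ± 0.051 (limma, adjusted p = 0.00474). Gm26945 also overlapped, at 6.76 to 9.16 FPKM against 6.08 to 8.01 FPKM, and differed by 0.18 ± 0.062 (limma, adjusted p = 0.0380). Its call was lost when any of 11 of the 16 saline libraries was left out in turn, with adjusted p of 0.0518 to 0.0694, and in each saline set alone. The Meg3 call was lost within saline set II alone (0.19, limma, adjusted p = 0.0882).

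Other lists were read in the same comparison. Of 37 imprinted genes elsewhere in the genome, 10 were higher in the NAc, 16 were lower and 11 were not called, with a median of -0.0691. Those higher included Peg10, another retrotransposon-derived gene (2.32, limma adjusted p in the same fit), and Nnat, a neuronal proteolipid (1.56), and those lower included Gnas (-0.74), which encodes a stimulatory G protein subunit. Of 11 tested genes listed as neighbours of the 6 genes, Begain (0.29) and Slc25a29 (0.30) were higher, Wars (-0.25) and Dync1h1 (-0.32) were lower and 7 were not called. Of 12 nuclear long noncoding RNAs, Malat1 (0.19) and Neat1 (0.36) were higher, 7 were lower and 3 were not called. Cell-type markers moved with the tissue as well: the 5 oligodendrocyte markers were all higher in the NAc, with a summed level of 512.4 to 703.1 FPKM against 131.4 to 183.7 FPKM, and 4 of 6 neuron markers were lower and 2 higher. The part of cell composition in the differences of the 6 genes was not tested.

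The transcripts of a gene can differ between tissues while its sum does not. The share of each transcript within the summed FPKM of its gene was compared over the 16 saline libraries for the 16 transcripts that reached a mean of 10% in either tissue. By exact permutation (two-sided, 12870 arrangements), 5 shares differed after Benjamini-Hochberg adjustment over the 16 shares, and 4 of them belonged to Meg3. Shares of other genes were not tested, so how common such differences are between these tissues is not known. The shares of a gene are tied, since a larger share of a transcript leaves less for the others. The 14548-base Meg3 transcript ENSMUST00000146701, the longest of the gene, took 20.3 ± 0.872% of Meg3 in the NAc and 23.0 ± 1.31% in the PFCx (exact adjusted p = 0.00249). The transcripts ENSMUST00000129245, ENSMUST00000126289 and ENSMUST00000128458 took larger shares in the NAc, by 4.09, 3.83 and 3.37 percentage points (exact adjusted p = 0.00249, 0.00435 and 0.00249). These 3 are shorter, at 1498, 755 and 695 bases. The remaining share was that of the Dlk1 transcript ENSMUST00000124293, at 4.44 ± 2.36% in the NAc and 17.4 ± 10.1% in the PFCx (exact adjusted p = 0.00796), where Dlk1 as a whole was under 1.4 FPKM. None of the Rian or Mirg shares passed. The Meg3 transcripts ENSMUST00000129245 and ENSMUST00000146701 do not overlap, since the first ends at position 109545319 and the other starts at 109545398.

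The drug values of Gm26945 are those that chose the locus. In the NAc, saline libraries had 7.98, 8.08, 7.13 and 6.76 FPKM in set I and 8.11, 8.29, 9.16 and 7.73 FPKM in set II. After mianserin, a tetracyclic antidepressant that blocks serotonin and adrenergic receptors, Gm26945 was at 5.17, 4.45, 4.46 and 3.87 FPKM. After risperidone, an antipsychotic that blocks serotonin and dopamine receptors, it was at 5.56, 4.95, 5.78 and 5.33 FPKM. Every library of both drugs were below the lowest saline library. The mean was 0.568 times that of saline after mianserin and 0.684 times after risperidone.

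The stimulant methamphetamine, which releases monoamines, gave values on the other side. The NAc libraries were at 9.91, 8.97, 10.4 and 8.93 FPKM, 1.21 times the saline mean, with all 4 above the set I saline libraries and 2 below the highest set II library. Haloperidol, a dopamine receptor blocker, left Gm26945 at 8.27, 6.82, 8.54 and 7.61 FPKM in the NAc, 0.988 times the mean of saline. Venlafaxine (8.65 ± 0.492 FPKM, n = 4) and ketamine (8.43 ± 0.720 FPKM, n = 4) overlapped with saline.

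The order of the drugs was the same at its ends in the PFCx. Saline libraries had 6.80, 6.87, 6.08 and 6.51 FPKM in set I and 6.40, 8.01, 7.84 and 6.60 FPKM in set II. Mianserin libraries had 3.73, 4.87, 4.31 and 4.57 FPKM, all below saline, with a mean 0.634 times that of saline. Risperidone libraries had 6.45, 3.81, 4.73 and 4.84 FPKM, of which 1 lay within the saline range. Methamphetamine libraries had 9.28, 8.64, 8.44 and 8.22 FPKM, all above saline, at 1.26 times its mean. Haloperidol libraries were at 5.82 ± 0.465 FPKM (n = 4), 0.846 times the mean of saline, and overlapped with it.

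**Figure D2:**
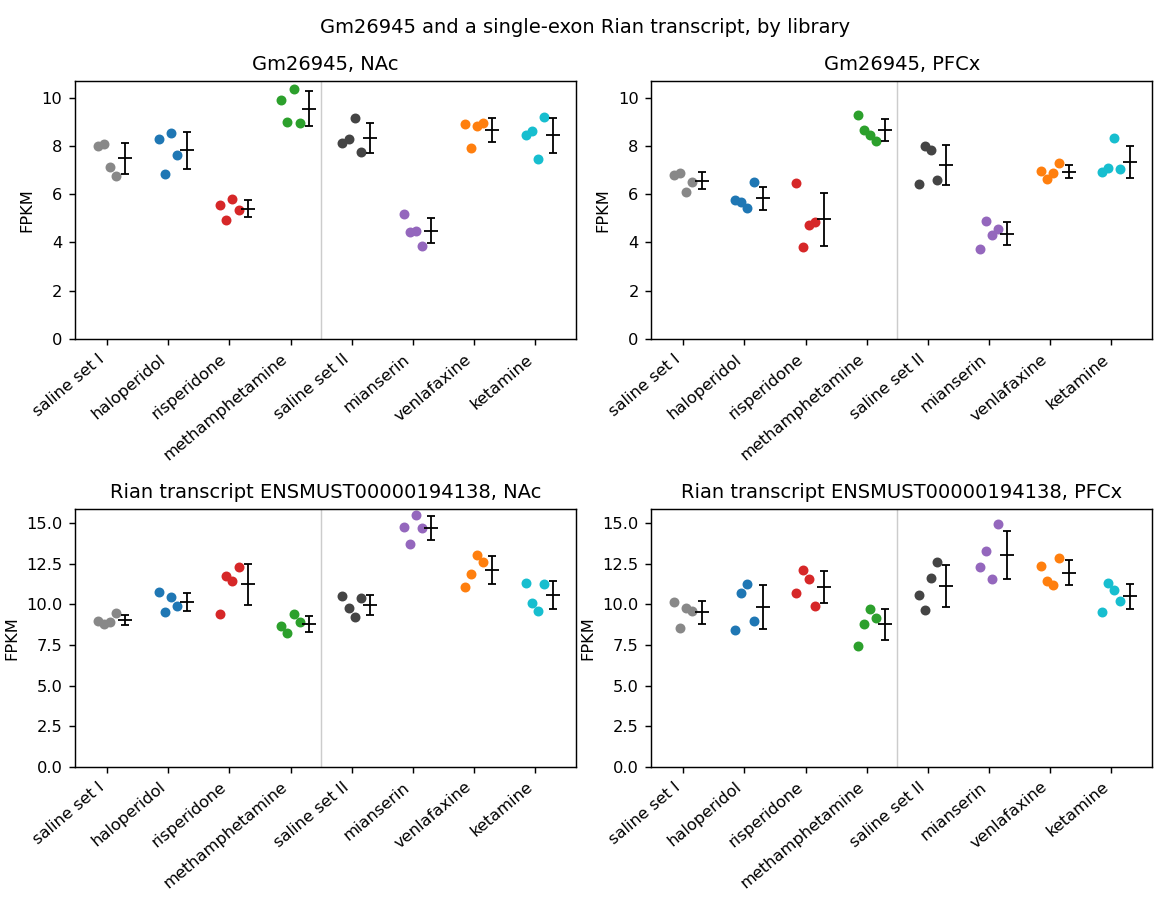
FPKM of Gm26945 and of the Rian transcript ENSMUST00000194138 in every library, by group (x axis) and tissue, with 4 points a group and the mean ± SD beside them. The grey line divides sample set I (left) from sample set II (right). Gm26945 is lowest after mianserin in both tissues, where the Rian transcript is highest.

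Whether the drug effects differed between tissues was tested over all 64 libraries for the 4 genes that did not choose the locus. None was called by the moderated F test over the 6 drugs (limma, adjusted p of 0.132 for Meg3, 0.239 for Mirg, 0.607 for Rtl1 and 0.717 for Dlk1), and 12.9% of all genes were. At an unadjusted p under 0.05 only Meg3 passed among these 4, and with 75th percentile scaling Meg3 was called (limma, adjusted p = 0.0414). The share of 12.9% was found with all saline libraries as controls. With the saline libraries of each drug's own sample set instead, 281 of the 37034 genes were called.

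The Rian transcript ENSMUST00000194138, just downstream of Gm26945, was highest after mianserin, where Gm26945 was lowest, and lowest after methamphetamine, where Gm26945 was highest. Venlafaxine and ketamine means were above saline for both. In the NAc saline libraries it was at 8.96, 8.78, 8.93 and 9.45 FPKM in set I and at 10.5, 9.75, 9.20 and 10.4 FPKM in set II. After mianserin it was at 14.8, 13.7, 15.5 and 14.7 FPKM, all above saline and 1.55 times its mean. Venlafaxine libraries, at 11.1, 11.8, 13.0 and 12.6 FPKM, were also all above saline. Risperidone libraries, at 9.41, 11.7, 11.4 and 12.3 FPKM, overlapped with it, and methamphetamine libraries, at 8.21 to 9.43 FPKM, reached the lowest values of the tissue.

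In the PFCx the same transcript was at 13.0 ± 1.47 FPKM (n = 4) after mianserin and 10.3 ± 1.29 FPKM (n = 8) after saline, and the groups overlapped. After methamphetamine it was at 8.77 ± 0.971 FPKM (n = 4). As a ratio within each library, which library depth does not change, Gm26945 over this transcript was 0.836 ± 0.096 after saline in the NAc, 0.306 ± 0.038 after mianserin, 0.488 ± 0.078 after risperidone and 1.08 ± 0.062 after methamphetamine. In the PFCx the ratio was 0.676 ± 0.101 after saline, 0.337 ± 0.038 after mianserin, 0.454 ± 0.122 after risperidone and 1.00 ± 0.173 after methamphetamine. In both tissues the mianserin and risperidone libraries lay below the lowest saline library in this ratio, except for 1 of 4 PFCx risperidone libraries. Both transcripts of the ratio chose the locus by their drug values, so this separation is a description only.

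The confidence bounds that Cufflinks gives for a single library were half-widths of 10.4% to 17.3% of the value for Gm26945 and 9.37% to 15.1% for the Rian transcript. Average coverage was 8.47 to 26.6 reads a base for Gm26945 and 15.5 to 40.5 for the Rian transcript. These cover counting and assignment error within a library only.

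The sum of Rian stayed within a narrower range. Its NAc means ran from 202.7 ± 3.79 FPKM after mianserin to 224.4 ± 5.21 FPKM after methamphetamine, against 208.6 ± 4.197 FPKM after saline. The methamphetamine libraries, from 217.5 to 228.7 FPKM, were all above the highest saline library at 212.9 FPKM. In the PFCx the means ran from 172.4 ± 9.57 FPKM after risperidone to 183.9 ± 8.51 FPKM after ketamine. Gm26945 thus went from 3.79 ± 0.362% of the Rian level after saline to 2.21 ± 0.245% after mianserin in the NAc, and from 3.77 ± 0.304% to 2.50 ± 0.298% in the PFCx. ENSMUST00000194138 is a small part of the Rian sum.

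Across the transcript rows as a whole, 0.12% of 86331 were called for a drug effect in the NAc (limma moderated F, adjusted p under 0.0001) and 0.0336% in the PFCx. Gm26945 was among them in both tissues and ENSMUST00000194138 in the NAc, and since these calls chose the locus nothing is read from them. Just outside this threshold was the Rtl1 transcript in the NAc, with an adjusted p of 0.000632 (limma). The Rian transcripts with the highest levels were ENSMUST00000182981 (51.8 FPKM in NAc saline), ENSMUST00000181253 (35.7 FPKM) and ENSMUST00000181527 (17.8 FPKM). No drug test is read for them either, since a transcript of Rian chose the locus.

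**Figure D3:**
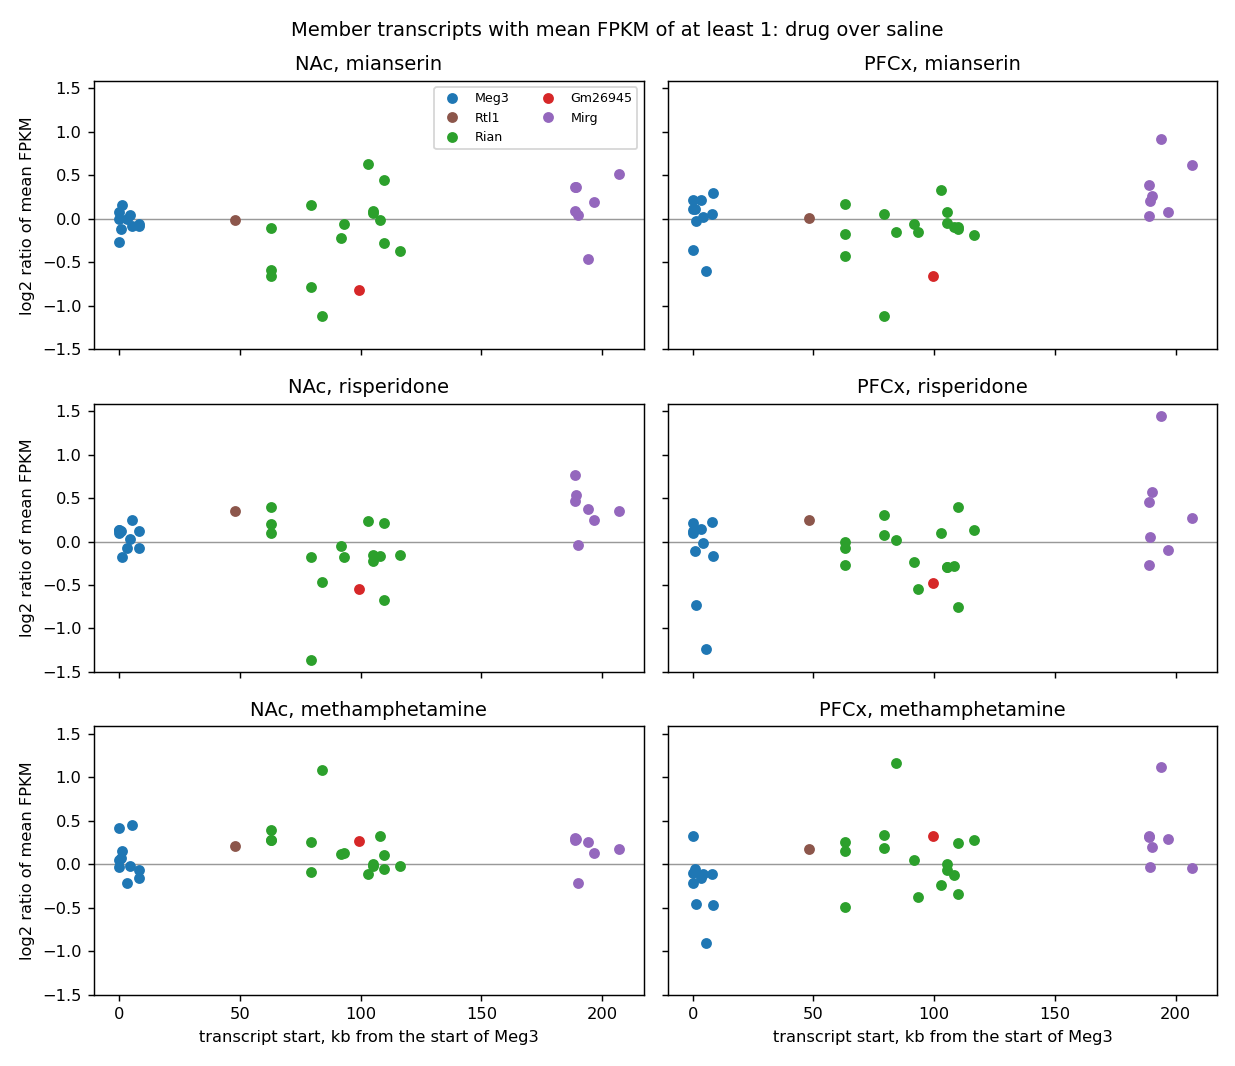
The log2 ratio of mean FPKM after drug to mean FPKM after saline (y axis) for the 34 member transcripts with a mean of at least 1 FPKM, by the distance of their start from the start of Meg3 in kilobases (x axis), for mianserin, risperidone and methamphetamine in each tissue. Gm26945, at 99.3 kb, lies below 0 after mianserin and risperidone and above 0 after methamphetamine, while several short Rian and Mirg transcripts scatter more widely.

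Among the 34 member transcripts with a mean of at least 1 FPKM, the scatter between saline libraries differed greatly. The coefficient of variation in NAc saline was 9.24% for Gm26945, 6.998% for ENSMUST00000194138 and 5.55% for the Meg3 transcript ENSMUST00000146701. It was 66.0% for the 633-base Rian transcript ENSMUST00000183180, whose log2 ratio was -1.11 after mianserin and 1.09 after methamphetamine in the NAc, and 56.7% for the 591-base Mirg transcript ENSMUST00000182268. For both, every drug group shown overlapped with saline in the NAc. The 3476-base Rian transcript ENSMUST00000182406, with a coefficient of variation of 5.75%, lay below all saline libraries after mianserin in the NAc (log2 ratio -0.21).

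Mirg, the host of the microRNA cluster at the distal end, rose after risperidone in the NAc. In that tissue the saline libraries were at 20.3, 19.9, 18.2 and 19.5 FPKM in set I and at 18.4, 17.8, 20.1 and 17.4 FPKM in set II. Risperidone libraries were at 24.2, 26.8, 21.7 and 27.3 FPKM, all above saline. The difference was 0.38 ± 0.074 on the log2(FPKM + 1) scale (limma, adjusted p = 0.00803), and 0.729% of all genes were called in this contrast. Because the locus was chosen on other rows of the same contrast, this p is not independent evidence. Haloperidol libraries were at 22.8, 21.8, 29.5 and 20.8 FPKM, also all above saline, and did not pass (0.30 ± 0.074, limma, adjusted p = 0.0503), with 0.721% of all genes called. It was called when any of 7 libraries was left out (limma, adjusted p of 0.0326 to 0.0491): haloperidol replicate 4, methamphetamine replicate 2, risperidone replicates 3 and 4, or saline set I replicates 1, 2 and 4.

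In the PFCx no drug passed the test for Mirg. The saline libraries were at 13.8, 15.1, 13.8 and 14.9 FPKM in set I and at 12.8, 11.8, 12.1 and 12.7 FPKM in set II. Haloperidol libraries, at 15.4, 15.3, 17.9 and 19.3 FPKM, were all above saline (0.32 ± 0.089, limma, adjusted p = 0.134), as were methamphetamine libraries, at 15.5, 15.2, 17.1 and 16.8 FPKM (0.26 ± 0.089, limma, adjusted p = 0.329). Risperidone libraries, at 15.9, 18.2, 14.6 and 18.4 FPKM, overlapped with saline (0.30 ± 0.089, limma, adjusted p = 0.119). All 6 drug means in the PFCx, from 14.7 to 16.9 FPKM, were above the saline mean of 13.4 FPKM.

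Rtl1 was also called after risperidone in the NAc. Saline libraries were at 7.52, 6.64, 6.20 and 6.34 FPKM in set I and at 6.03, 6.01, 5.54 and 6.57 FPKM in set II. Risperidone libraries were at 9.002, 8.21, 7.65 and 7.66 FPKM, all above saline (0.31 ± 0.061, limma, adjusted p = 0.00795). Haloperidol, at 7.51 ± 0.379 FPKM, and methamphetamine, at 7.34 ± 0.182 FPKM, overlapped with the highest saline library and did not pass (limma, adjusted p = 0.1003 and 0.269). Without saline set I replicate 1, the highest saline library, haloperidol was called for Rtl1 (limma, adjusted p = 0.0309). In that methamphetamine contrast 0.194% of all genes were called.

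Both calls rested on the choice of controls. Risperidone belongs to sample set I, and against the 4 saline libraries of set I alone the differences were 0.34 for Mirg (limma, adjusted p = 0.110) and 0.25 for Rtl1 (adjusted p = 0.151), with the groups still apart. Over all genes, 0.213% were called with these 4 controls and 0.729% with all 8, so calls were lost across genes. Against all 8 controls, leaving out the risperidone replicate 1 library took Rtl1 to an adjusted p of 0.0711, and leaving out replicate 2 or replicate 4 took Mirg to 0.0554 or 0.0641. The Cufflinks bounds of Rtl1 had half-widths of 7.18% to 11.0%.

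**Figure D4:**
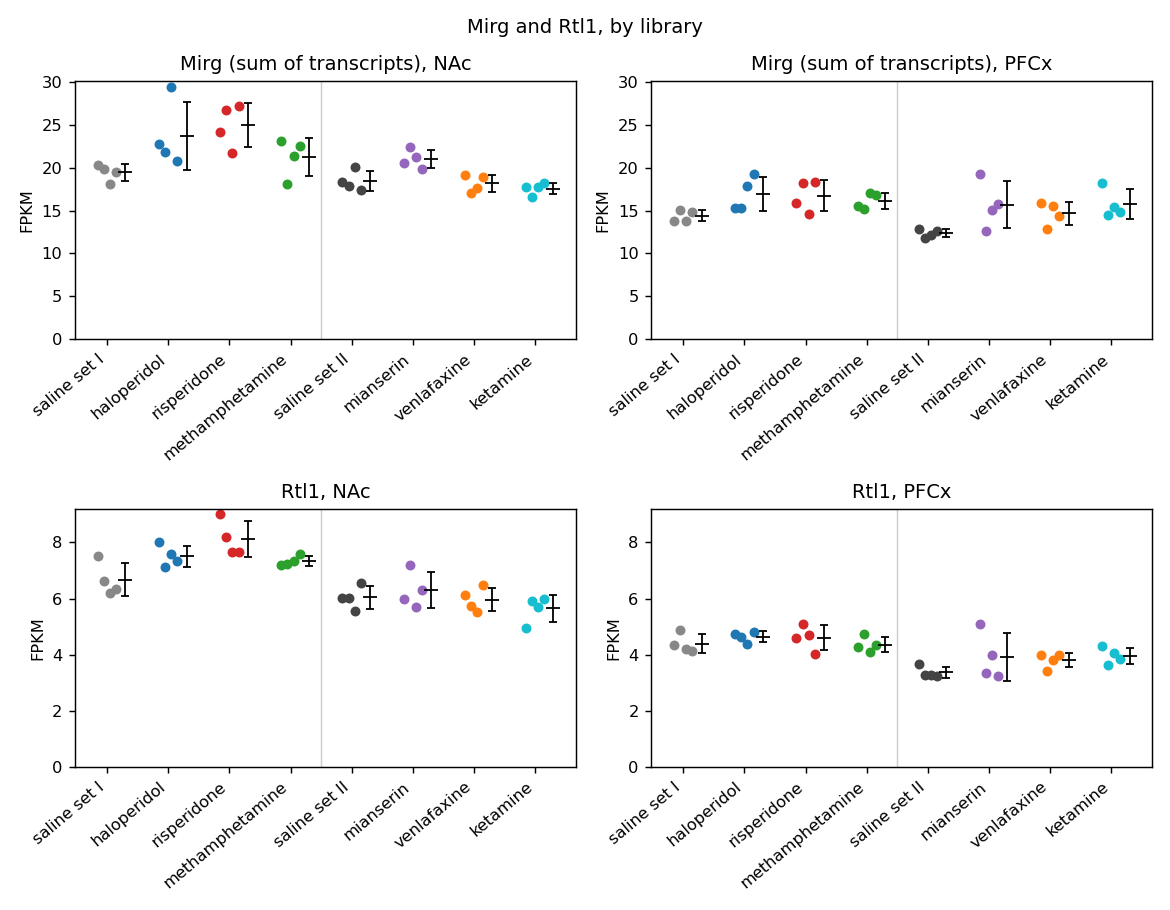
FPKM of Mirg (sum of its transcripts) and Rtl1 in every library, by group (x axis) and tissue, with the mean ± SD beside the 4 points. The grey line divides sample set I (left) from sample set II (right). In the PFCx, Rtl1 is at 4.13 to 4.88 in saline set I and at 3.25 to 3.65 in saline set II.

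The saline sets differed in Rtl1. In the PFCx, set I libraries were at 4.34, 4.88, 4.19 and 4.13 FPKM and set II libraries at 3.65, 3.29, 3.27 and 3.25 FPKM, with no overlap. The difference of 0.30 ± 0.067 passed the test (limma, adjusted p = 0.0308), and 6.57% of all genes passed between the saline sets of the PFCx. The call was lost without any of 6 of the 8 libraries in turn, with adjusted p of 0.0606 to 0.0940. Mirg differed the same way (0.21 ± 0.060, limma, adjusted p = 0.0826), with no overlap, and was not called. In the NAc none of the 6 genes was called between the saline sets, where 17.2% of all genes were, and Rtl1 differed by 0.12 ± 0.068 (limma, adjusted p = 0.234). The set I minus set II difference of Gm26945 was -0.14 ± 0.071 (NAc) and -0.11 ± 0.083 (PFCx), and neither was called.

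Meg3 did not pass in any of the 12 drug contrasts, with adjusted p of 0.212 to 0.994 (limma). In the NAc its means ran from 320.6 ± 18.8 FPKM after ketamine to 366.4 ± 21.4 FPKM after risperidone, against 352.3 ± 21.6 FPKM after saline. In the PFCx they ran from 273.8 ± 15.7 FPKM after methamphetamine to 331.4 ± 26.5 FPKM after venlafaxine, against 303.6 ± 20.9 FPKM after saline. All of these groups overlapped with the 8 saline libraries, and the differences lay between -0.15 and 0.13 on the log2(FPKM + 1) scale. The NAc ketamine libraries, at 294.7 to 335.6 FPKM, were all below saline set II alone, at 338.5 to 380.7 FPKM. After venlafaxine in the PFCx, the Meg3 transcript ENSMUST00000146701 was at 74.2 to 81.3 FPKM, above the highest saline library at 73.4 FPKM. Its drug effect in the PFCx was not called (limma moderated F, adjusted p = 0.176).

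Dlk1 did not pass in any of the 12 contrasts either, with adjusted p of 0.557 to 0.990 (limma). Its NAc drug libraries ran from 3.24 to 8.90 FPKM and its PFCx drug libraries from 0.388 to 1.11 FPKM, and each drug group overlapped with saline. The spread of Dlk1 was wide, so its differences were known to a standard error of 0.20 (NAc) and 0.12 (PFCx), larger than those of the other genes of the locus.

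**Figure D5:**
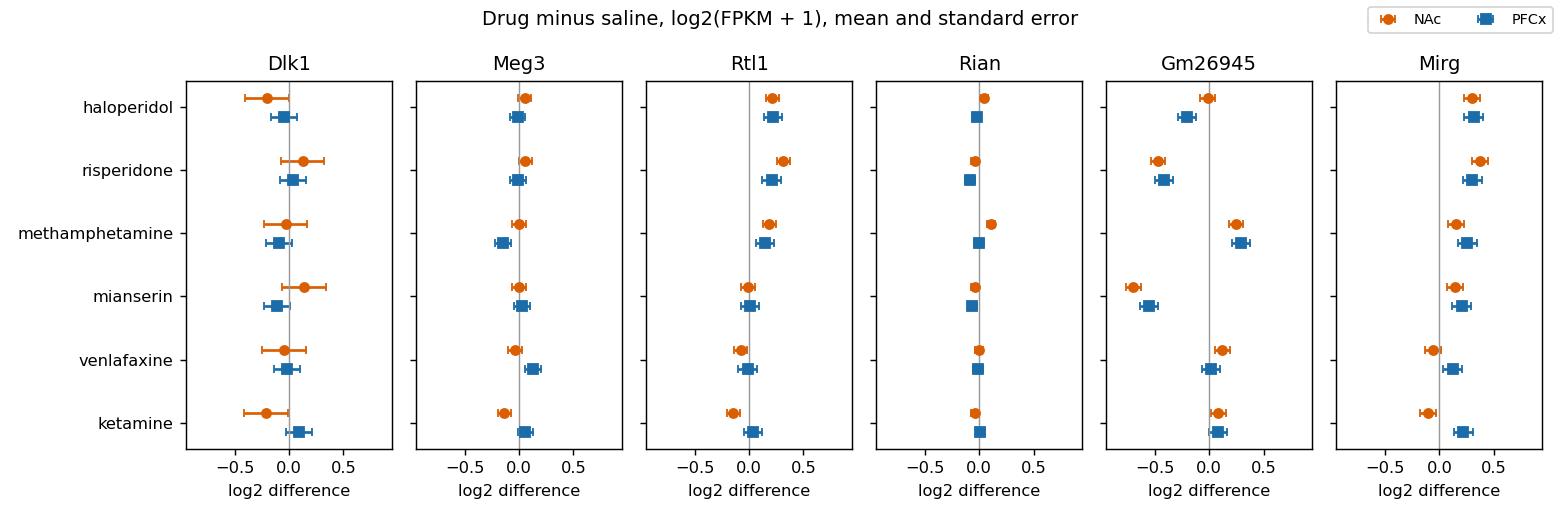
Drug minus saline for the 6 genes, as the mean difference (x axis) and its standard error on the log2(FPKM + 1) scale, for each drug (y axis), with the NAc as circles and the PFCx as squares. Gm26945 is below 0 for mianserin and risperidone in both tissues, at -0.70 and -0.47 (NAc) or -0.56 and -0.42 (PFCx), and Mirg is above 0 for 10 of the 12 points.

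Over all drug contrasts, the share of genes called sets the scale for these counts. The genes called after mianserin were 1.84% (NAc) and 0.667% (PFCx), after venlafaxine 1.83% and 0.0054%, and after ketamine 1.97% and 0.0162%. In the PFCx they were 0.162% after haloperidol, 0.51% after risperidone and 0.351% after methamphetamine. Of the 4 genes that did not choose the locus, none was called after mianserin, venlafaxine or ketamine in either tissue, and none in the PFCx (limma, with 7 of 24 pairs of a gene and a drug at an unadjusted p under 0.05 there). At that unadjusted p the PFCx fits passed from 2652 (venlafaxine) to 5354 (risperidone) of 37034 genes. Among the NAc pairs of these 4 genes, 8 of 24 passed. The NAc fits passed from 4922 (methamphetamine) to 7991 (venlafaxine) of 37034 genes. The shares above used all 8 saline libraries of a tissue and changed with the controls. Against the saline of its own sample set, mianserin had 0.273% of genes called in the NAc and 2.01% in the PFCx. Venlafaxine had 0.0081% and 0.74%, and ketamine 0.967% and 1.51%. In the PFCx, haloperidol had 0.0216%, risperidone 0.162% and methamphetamine 0.159%.

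Other genes around the locus and other imprinted genes were read for the same contrasts. Of 11 tested genes that flank the locus on either side, such as Begain, Wars, Dync1h1 and Ppp2r5c, none was called in any of the 12 drug contrasts (limma, with 14 of 132 pairs of a gene and a contrast at an unadjusted p under 0.05). Of the 37 imprinted genes elsewhere, among them Gnas, Snurf, Nnat and Snrpn, none was called either (62 of 444 pairs at an unadjusted p under 0.05). Over all 37034 genes, a contrast passed from 2652 (venlafaxine, PFCx) to 7991 (venlafaxine, NAc) at that unadjusted p, so these counts set neither list apart. With only their own set of saline libraries as controls, Nnat (0.51 and 0.47) and Blcap (0.34 and 0.33) were higher after venlafaxine and ketamine in the PFCx, and Kcnq1ot1 was lower after mianserin there (-0.22, limma, adjusted p of 0.00507 to 0.0400 for the 5 calls). The sets of these PFCx drug libraries were carried over from the NAc. Of 12 nuclear long noncoding RNAs, Neat1, the scaffold RNA of paraspeckles, was higher after haloperidol in the NAc (0.39 ± 0.073, limma adjusted p = 0.00632) and after mianserin in the PFCx (0.37 ± 0.077, limma adjusted p = 0.0151). Xist was called after mianserin and venlafaxine in the NAc at a mean level of 0.234 FPKM. Malat1 and Snhg14 were not called. Against the own-set controls, neither the Neat1 call in the NAc nor those of Xist held, while the Neat1 call in the PFCx did (0.36). Those controls also gave calls for Snhg1, which was lower after ketamine in the NAc (-2.98) and higher after mianserin (0.88) and ketamine (0.99) in the PFCx, for Gas5, lower after ketamine in the NAc (-0.86), and for Kcnq1ot1, which is on both lists.

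Cell-type markers under drug were read beside these values. In the mianserin and risperidone contrasts, in which Gm26945 was lowest, 1 marker was called, Neurod2 after mianserin in the PFCx (higher). The summed oligodendrocyte markers were 538.9 to 566.5 FPKM after mianserin and 593.9 to 690.1 FPKM after risperidone in the NAc, against 512.4 to 703.1 FPKM after saline. In the PFCx they were 167.5 to 192.4 FPKM after mianserin and 98.9 to 172.3 FPKM after risperidone, against 131.4 to 183.7 FPKM after saline. The summed neuron markers in the PFCx were 774.8 to 833.1 FPKM after mianserin, all above the saline range of 679.6 to 771.5 FPKM, and 689.6 to 746.8 FPKM after risperidone. The choroid plexus and ependyma markers summed to between 1.03 and 2.48 FPKM in the saline and mianserin libraries of both tissues. Their part in the values of Gm26945 was not tested.

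Likeness to other genes was read as the mean of the within-tissue Pearson r over 32 libraries each, among 14497 genes with a mean of at least 1 FPKM in both tissues. These libraries share drug groups and sample sets, so the values describe these data and carry no p. Gm26945 was most like Clk1, which encodes a kinase that phosphorylates SR splicing factors (mean r 0.839, with 0.876 for the NAc and 0.801 for the PFCx), and Tra2a, which encodes a splicing regulator (mean r 0.798). RP23-83P5.5 (0.796), Gm14636 (0.714) and Gm37534 (0.71) followed. Clk1 was at 26.5 ± 1.41 FPKM after saline in the NAc, at 17.2 ± 1.38 FPKM after mianserin, at 19.2 ± 1.63 FPKM after risperidone and at 29.7 ± 2.37 FPKM after methamphetamine. In the PFCx it was at 19.4 ± 1.81, 13.3 ± 2.08, 16.3 ± 2.30 and 23.9 ± 0.818 FPKM in the same order of groups.

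Tra2a followed the same order. It was at 9.60 ± 0.903 FPKM after saline in the NAc, 7.15 ± 0.456 FPKM after mianserin and 12.3 ± 0.523 FPKM after methamphetamine. Meg3 was most like Cabin1 (mean r 0.751), Gm27000 (0.747), Arhgef17 (0.739), Ncdn (0.733) and Sox12 (0.729). Rian, whose values varied little, was most like Polb (0.586), Ranbp2 (0.572), Gm38194 (0.562), Gm38235 (0.559) and Gm37371 (0.555). All of these partners lie outside the locus.

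The small RNA genes within the locus were counted only. The tables hold 92 of them below 300 bases, of which 65 were microRNA genes and 23 snoRNA genes. Of the microRNA genes, 5 reached a mean of 1 FPKM, and of the snoRNA genes 14 did. The snoRNA AF357425 was listed at 3101 FPKM on average, and in the PFCx saline libraries at 1909 to 3442 FPKM in set I and 4951 to 6253 FPKM in set II. Gm24899, inside Gm26945, was listed at or near 0 in the saline libraries. FPKM of features shorter than the reads is unstable in Cufflinks, so no comparison was drawn from these rows.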

How the data were processed

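Total RNA of 64 libraries was sequenced after ribosomal RNA depletion on the Ion platform, with 32 libraries for each tissue. The authors aligned the reads to mm10 with TopHat2 (2.0.1) and then Tmap. Cufflinks (2.2.1) gave transcript levels, and the deposited values are FPKM for each Ensembl transcript. The coverage column, deposited beside them, is the average read depth of a transcript in a library, and was used here with FPKM only for the depth (median 2.39 gigabases). Read counts were not used here, so no count model was fitted. Each table holds 112714 transcripts.

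FPKM was summed over the transcripts of a gene and tested as log2(FPKM + 1), with genes or transcripts whose mean reached 0.1 FPKM in the NAc, the PFCx or both, in limma (3.58.1, R 4.3.3) with empirical Bayes moderation and Benjamini-Hochberg adjustment over 37034 genes or 86331 transcripts. Each tissue was fitted alone with its 8 saline and 24 drug libraries, the tissue and saline-set comparisons used saline libraries only, and the comparison of drug effects between tissues used all libraries. A fold on this scale understates the change of low genes. Transcript shares were compared with exact permutation tests (scipy 1.17.1). The fits were tested on simulated data.

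The genes, lists and markers were chosen with earlier results of these data known. Named were the 6 genes, the 3 transcripts of each with the highest mean FPKM, called transcripts, the 5 genes most like Meg3, Rian and Gm26945, and the listed genes called in the most contrasts. Genes and transcripts named beyond this rule, as those with a large spread or a tissue difference, were chosen after their values were seen. Alternatives covered the pseudocount, filters, scaling, the variance trend, the replicate block, the saline sets, transcript choice and each library left out in turn.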

Additional observations from a re-analysis of the deposited data

Results flagged for a closer look

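In 2 of the 84 pairs of a gene and a group of 4 or 8 libraries, 1 library stood far from the others by Dixon's criterion, which chance alone meets in about 1 of 20 groups. Both concerned Gm26945. After venlafaxine in the NAc, replicate 2 was at 7.91 FPKM and the other libraries at 8.82 to 8.94 FPKM. After ketamine in the PFCx, replicate 3 was at 8.33 FPKM and the others at 6.92 to 7.07 FPKM. Neither library belongs to a group that stood apart from saline in Gm26945.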

How the results depend on the processing

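Of the 4 genes tested under drug, 2 calls were made in the NAc (Mirg and Rtl1 after risperidone) and 0 in the PFCx. The NAc count was 1 with saline set I alone or with the top transcript of each gene, 5 with saline set II alone and 0 with the saline libraries of each drug's own set, and 1 to 4 with a library left out. The PFCx count was 6 with saline set II alone and 0 to 0 with a library left out. With saline set II alone, haloperidol, risperidone and methamphetamine had 10382, 9840 and 8403 genes called in the NAc. With all saline libraries they had 267, 270 and 72. In the PFCx they had 4412, 4584 and 3014, against 60, 189 and 130. Mianserin, venlafaxine and ketamine fell to 97, 1 and 360 in the NAc and rose to 696, 209 and 523 in the PFCx. Calls thus rose across genes for the set I drugs, so the counts of 5 and 6 do not set the 4 genes apart. Transcripts called for a drug effect, used to choose the locus, were 2 in the NAc (1 with a pseudocount of 0.1 or own-set saline, 1 to 2 with a library left out) and 1 in the PFCx (0 with that pseudocount, with 75th percentile scaling or with the replicate block, 0 to 1 with a library left out). The replicate block changed no other count by over 1.5 times; same-numbered libraries correlated at 0.102 on average (NAc) and 0.105 (PFCx), against -0.0341 and -0.0309 for other numbers, and 63 and 48 of 112 pairs were over 0.1, so not every pair was and the numbers were not taken to pair them. Between tissues, 1 gene (Meg3) differed in its drug effect with 75th percentile scaling against 0 otherwise. Between saline sets the count was 1, and 0 with a pseudocount of 0.1 or 75th percentile scaling, 2 without a filter, 3 with the top transcript and 0 to 1 with a library left out. With the top transcript, the set difference of Rian turned to 0.28 (NAc) and 0.94 (PFCx). The tissue count of 6 was 5 to 6 and the share count of 5 was 5 to 6 with a library left out. The causes were not tested. Depth is known only from coverage, and low transcripts such as those of Dlk1 in the PFCx are the least certain.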

Other observations

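Gm37899, a single-exon transcript of 8717 bases annotated downstream of Rian at chr12:109668869-109677585, was not among the 6 genes and was chosen after its values were seen. In the NAc it was at 4.31 ± 0.299 FPKM (SD, n = 8) after saline, with a range of 4.03 to 4.82 FPKM, and at 5.69 ± 0.394 FPKM (n = 4) after mianserin, where the libraries lay above all saline libraries.

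Mirg was most like Fosb, an activity-regulated transcription factor gene, among 14497 genes (Pearson r 0.724 for the NAc, 0.726 for the PFCx, 32 libraries each, which share drug groups). Rtl1 was most like Gm15725 (mean r 0.867), Fscn1 (0.855) and Rplp0 (0.85), and Dlk1 was most like Robo1 (0.562). These likenesses were also read after the values were seen and are given with no test.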
